A study of Mus musculus with 12 samples.

Results

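The miR-183 cluster consists of miR-183, miR-96 and miR-182. They were taken by name, as the probe sets mmu-miR-183_st, mmu-miR-96_st and mmu-miR-182_st of the plain mouse strands, 3 of the 717 mature mouse probe sets of a miRNA array. The deposited table holds 1412 mouse probe sets in all, and besides the 3 members it has 1 opposite strand of the cluster, miR-183*, and the hairpin precursors of all 3. RNA came from NIH3T3 cells, an established line of mouse embryo fibroblasts, harvested while proliferating, either without treatment (0 h) or after 2, 5 or 10 h in 2 μg/ml tunicamycin (Tm), with 3 arrays at each of the 4 time points. Tm blocks N-linked glycosylation of proteins in the ER and thereby causes ER stress and the unfolded protein response (UPR). No untreated arrays were run at 2, 5 or 10 h, so Tm and time in culture cannot be told apart. Whether the replicate arrays stem from separate cultures is not in the labels, so the p-values cover no more than the array-to-array spread, which can be technical.

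The cluster is transcribed as 1 polycistronic precursor, from which Drosha and Dicer release the hairpins and the mature strands. It is best known from sensory organs, where its members are abundant in hair cells of the inner ear and in the photoreceptors of the retina, and it is also found in many epithelia and carcinomas. The transcription factor Foxo1 is a shared target of its members. The precursor of miR-96 has in addition been named among those cut by Ire1, the UPR sensor whose RNase also splices Xbp1 mRNA.

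The 3 hairpins lie on the minus strand of mouse chromosome 6 in RefSeq (GRCm38.p6), with mir-183 at chr6:30169668-30169737, mir-96 at chr6:30169446-30169551 and mir-182 at chr6:30165918-30165992. They overlap the long non-coding RNA gene Mirc35hg, and the nearest protein-coding genes on either side are Nrf1 and Ube2h. All 3 members matched a RefSeq entry. The mature strands are shown 5′ to 3′ because the members are often treated as 1 family, with the seed, bases 2 to 8, in capitals. MiR-183-3p is the strand that the array calls miR-183*.
miR-183-5p: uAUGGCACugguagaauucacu
miR-96-5p: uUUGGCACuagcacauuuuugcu
miR-182-5p: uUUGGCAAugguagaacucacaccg
miR-183-3p: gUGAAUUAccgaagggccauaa

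No 2 members had the same seed of 7 bases. The seeds of miR-183 and miR-96 differed only at position 2 of the miRNA, those of miR-96 and miR-182 only at position 8, and those of miR-183 and miR-182 at both. Over the whole strands aligned from the 5′ end, miR-183 and miR-182 were identical at 18 of 22 positions, miR-183 and miR-96 at 13 of 22, and miR-96 and miR-182 at 12 of 23. Among 1679 mature mouse miRNAs in the RefSeq table, a single other strand carried the seed of a member. It was miR-1271-5p, with the seed of miR-96, and it is not among the probe sets analysed here.

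The values are log2 intensities per probe set that the authors made with RMA. Brightness differs between probe sets for reasons other than abundance, so levels are not set against each other between miRNAs. The table has no detection calls, and a background limit was therefore set for each array, at the most frequent value plus 3 times the spread below it. The limit lay between 3.30 and 3.46, and each array had between 49.9% and 52.6% of its mature probe sets over it. Each difference between time points is a log2 difference from 1 limma fit of all 717 mature probe sets over the 12 arrays, and called means an adjusted p (Benjamini-Hochberg, over the 717) under 0.05. The median log2 difference from 0 h over all mature probe sets was 0.03 after 2 h, 0.03 after 5 h and 0.02 after 10 h. Rises and falls cancel in that median. The median size of a difference, without its sign, was 0.17, 0.14 and 0.17.

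None of the 3 members was called against 0 h at any time. This was 0 of 3 at 2 h, where 13.2% of all mature probe sets were called, 0 of 3 at 5 h, against 8.37% of all, and 0 of 3 at 10 h, against 12.7% of all. At an unadjusted limma p under 0.05 the counts were 0, 0 and 1, the 1 being miR-182 at 10 h. The shares of all mature probe sets meeting that rule were 24.5%, 18.5% and 23.2%. For the 3 members, the methods' t-test after Benjamini-Hochberg adjustment gave the same counts of 0, 0 and 1. Across the 717, its calls as rises/falls were 15/21 after 2 h, 6/4 after 5 h and 21/19 after 10 h. MiR-183 and miR-182, both bright, stayed within narrow bounds over the whole course, and miR-96 lay close to the background limit with a wide spread. The moderated F test over all times called 1 of 3 members, miR-182, where 21.8% of all mature probe sets were called.

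**Figure D1:**
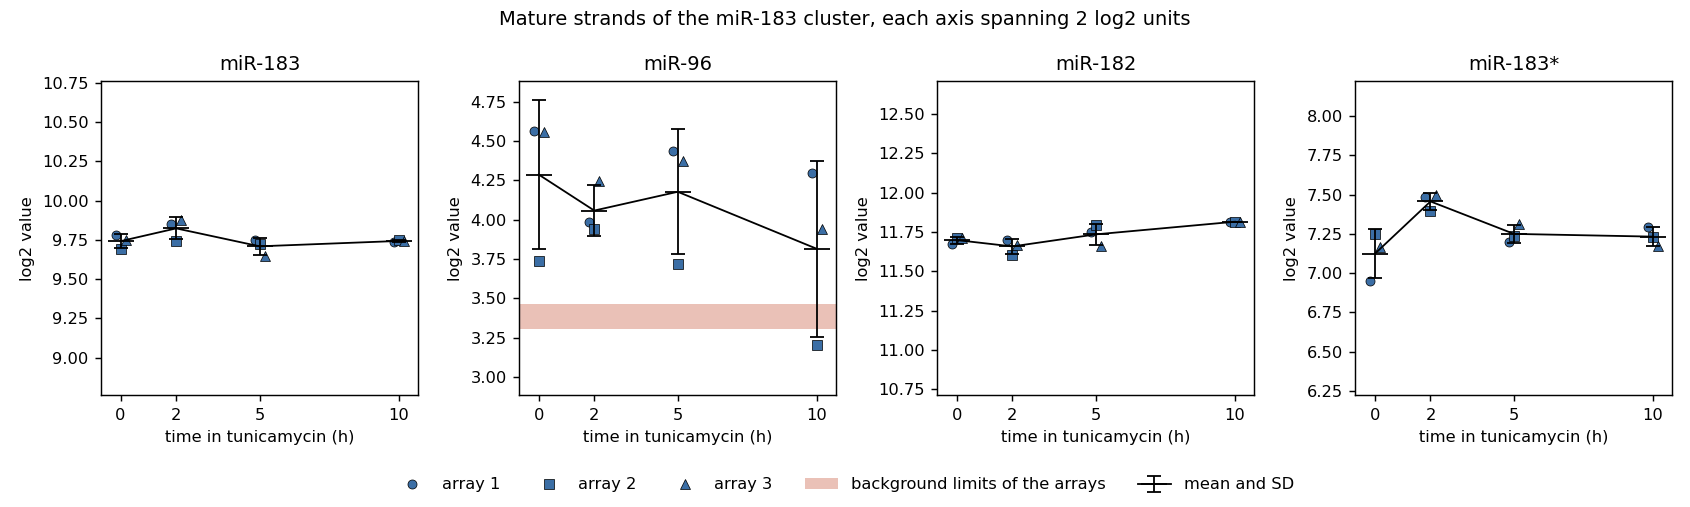
Log2 value on each array (symbols), with the mean and SD (n = 3 arrays), against time in Tm in hours, for miR-183, miR-96, miR-182 and miR-183*. Every axis spans 2 log2 units; the shaded band is the range of the background limits of the 12 arrays. MiR-183 and miR-182 are almost flat, miR-96 comes down to the band on 1 array at 10 h, and miR-183* is highest at 2 h.

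MiR-183, the first hairpin product in the direction of transcription, had log2 values of 9.78, 9.69 and 9.75 at 0 h, 9.85, 9.74 and 9.87 at 2 h, then 9.75, 9.73 and 9.65 at 5 h. At 10 h they were 9.74, 9.75 and 9.74. All 12 arrays were at least 6.23 above their background limit, and the arrays of every later time point overlapped those at 0 h. The difference in limma was 0.08 at 2 h (95% interval -0.03 to 0.20, adjusted p = 0.40), -0.03 at 5 h (-0.15 to 0.08, adjusted p = 0.83) and 0.00 at 10 h (-0.11 to 0.12, adjusted p = 0.99), each against 0 h. The intervals keep the level of miR-183 at 10 h between 0.925 and 1.08 times that at 0 h. The widest gap between time points lay between 5 h and 2 h, where the difference was -0.11 (SE 0.05, adjusted p = 0.24).

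The opposite strand of the same hairpin, miR-183*, is cut from the other arm and is usually the strand that is discarded. It gave 6.95, 7.25 and 7.17 at 0 h, 7.48, 7.39 and 7.49 at 2 h, then 7.20, 7.24 and 7.31 at 5 h. At 10 h it gave 7.29, 7.23 and 7.18. The 3 arrays at 2 h were above all other 9 arrays (30.1% of mature probe sets had no overlap between 2 h and 0 h, in either direction), and the first array at 0 h was the lowest of all. MiR-183* rose at 2 h, to 7.46 ± 0.06 against 7.12 ± 0.16 at 0 h (SD, n = 3 arrays each), a difference of 0.33 (SE 0.10, limma adjusted p = 0.036, 1.26-fold), where 7.39% of mature probe sets were called higher. Against 0 h it differed by 0.13 after 5 h (adjusted p = 0.57). After 10 h the difference was 0.11 (adjusted p = 0.60), and neither passed the test. At 10 h against 2 h it differed by -0.22 (adjusted p = 0.19), so a return after 2 h was not called. The call at 2 h was lost without any 1 of 5 of the 6 arrays compared, with an adjusted p between 0.050 and 0.15; only the second array at 0 h could be left out (adjusted p = 0.031).

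The change of miR-183* was set against that of miR-183 within arrays, since both strands come from the same hairpin. Relative to miR-183, miR-183* changed by 0.25 more at 2 h, with no overlap between the arrays at 2 h and those at 0 h. How often other pairs of mature probe sets lack overlap in this way was not computed. With 3 arrays against 3, the exact permutation test, two-sided, cannot go below p = 0.1, and it gave p = 0.1 here (0.40 after Benjamini-Hochberg over 12 such comparisons). At 5 h and 10 h the differences of 0.16 and 0.11 had exact permutation p = 0.40 and 0.50. Without the first array at 0 h, miR-183* exceeded miR-183 in its change by 0.15 at 2 h, by 0.054 at 5 h and by 0.0024 at 10 h.

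MiR-96, the member known from inherited deafness when its seed is mutated, was read close to the background. Its log2 values were 4.56, 3.74 and 4.56 at 0 h, 3.98, 3.94 and 4.25 at 2 h, then 4.44, 3.72 and 4.38 at 5 h. At 10 h they were 4.30, 3.20 and 3.94. The second array was the lowest at all 4 time points. At 10 h that array fell 0.16 under its own limit, and the other 11 arrays were above theirs, by at most 1.20. The arrays at every later time overlapped those at 0 h.

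The mean of miR-96 was 3.82 ± 0.56 at 10 h against 4.29 ± 0.48 at 0 h (SD, n = 3 arrays each), the lowest and the highest mean of the course. The difference of -0.47 (SE 0.32) did not pass the limma test (adjusted p = 0.43), and its 95% interval, -1.17 to 0.22, spans 0.446 to 1.17 times the level at 0 h. At 2 h the difference was -0.23 (interval -0.92 to 0.46, adjusted p = 0.73) and at 5 h it was -0.11 (interval -0.80 to 0.58, adjusted p = 0.90). The SE of 0.32 compares with a median of 0.16 over all mature probe sets, so a change of miR-96 of the size of that median SE was not detectable on these arrays. Without the second array at 10 h, the difference at 10 h against 0 h was -0.17, and without the second array at 0 h it was -0.75.

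MiR-182, the most distant member along the transcript, gave 11.67, 11.71 and 11.71 at 0 h, 11.70, 11.61 and 11.67 at 2 h, then 11.75, 11.79 and 11.66 at 5 h. At 10 h it gave 11.82, 11.82 and 11.81. The 3 arrays at 10 h were above all 9 earlier ones. At 10 h against 0 h, 1 of 3 members, miR-182, had arrays without overlap, as had 28% of all mature probe sets. The difference there was 0.12 (SE 0.04, interval 0.03 to 0.20, adjusted p = 0.076), short of the threshold. At 2 h and 5 h against 0 h, miR-182 differed by -0.04 (adjusted p = 0.60) and 0.04 (adjusted p = 0.71).

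A difference that passed the test lay between 10 h and 2 h. MiR-182 averaged 11.82 ± 0.0013 at 10 h against 11.66 ± 0.05 at 2 h (SD, n = 3 arrays each), higher by 0.16 (SE 0.04, interval 0.07 to 0.24, limma adjusted p = 0.016). This is 1.12-fold, with an interval of 1.05 to 1.18. It was 1 of 3 members called in that comparison, where 10.9% of mature probe sets were called. It was also the only 1 of 3 without overlap between the arrays, as in 29.1% of mature probe sets, and the median size of a difference over all of them was 0.16. MiR-182 at 10 h against 5 h gave 0.08 (adjusted p = 0.38), without overlap between arrays, as in 18.4% of mature probe sets. In the comparison of 10 h with 5 h, 0 of 3 members were called (5.58% of all), and 0 had an unadjusted limma p under 0.05 (15.2% of all). The methods' t-test also called 0 of 3 there, with 7 of all mature probe sets higher and 4 lower. At 5 h against 2 h, 0 of 3 were called (10.7% of all), and 0 had an unadjusted limma p under 0.05 (20.6% of all). The methods' t-test again called 0 of 3, with 18 of all higher and 14 lower.

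The F test of miR-182 over all times stood just under the threshold (adjusted p = 0.046), against 0.45 for miR-183, 0.71 for miR-96 and 0.11 for miR-183*. The call of miR-182 at 10 h against 2 h was lost without the second array at 2 h (0.13, adjusted p = 0.078), the second at 10 h (0.16, adjusted p = 0.053) or the third at 10 h (0.16, adjusted p = 0.057). When each array was shifted to 1 median of the mature probe sets, a scaling added with the data in view, miR-182 was higher by 0.28 at 10 h against 2 h (adjusted p = 0.038) and by 0.20 against 0 h (adjusted p = 0.16).

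The spread of the bright members was small at 10 h. The SD of miR-182 over the 3 arrays was 0.0013, and 0 of the 717 mature probe sets had a smaller one at that time. The SD of miR-183 was 0.0049, with 3 probe sets below it, and the median SD was 0.14. At 2 h the same SDs were 0.05 for miR-182 and 0.07 for miR-183, with 101 and 168 probe sets below them.

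**Figure D2:**
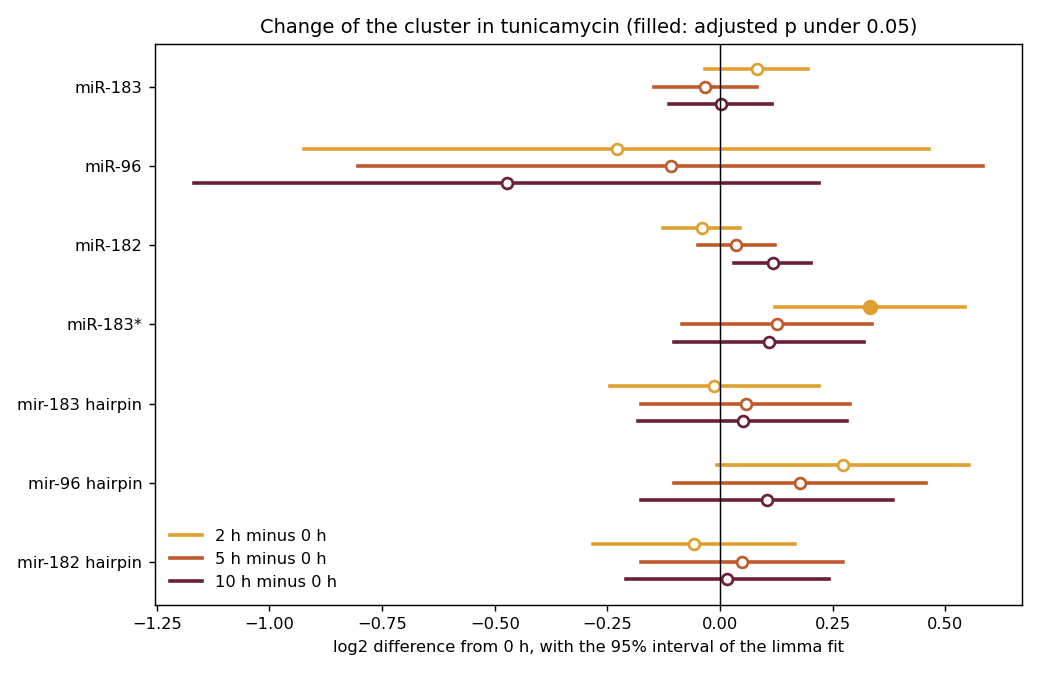
Log2 difference from 0 h (points) with its 95% interval (lines) in the limma fits, for the mature strands and the hairpins of the cluster at 2, 5 and 10 h, from top to bottom within each row. Filled points had an adjusted p under 0.05: miR-183* at 2 h (0.33) is filled, and miR-182 at 10 h (0.12) is open with an interval above 0.

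The 3 members were also compared in their changes, within arrays, which removes whatever shifts an array as a whole. MiR-182 changed by 0.12 less than miR-183 at 2 h and by 0.12 more at 10 h, both without overlap between the arrays and the 0 h arrays. The share of other pairs of mature probe sets without such overlap was not computed, so whether this is unusual was not tested. Both gave exact permutation p = 0.1, the smallest possible, and 0.40 after adjustment over the 12 comparisons. At 5 h the difference was 0.07 (exact permutation p = 0.30). MiR-182 changed by 0.59 more than miR-96 at 10 h (exact permutation p = 0.30), and miR-183 by 0.47 more (exact permutation p = 0.30). Both values depended on the second arrays. They were 0.28 and 0.17 without the second array at 10 h, and 0.87 and 0.73 without the second array at 0 h. None of the 12 comparisons could pass the threshold at this number of arrays.

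Probe sets for the hairpins read the precursors before Dicer cuts them. The hairpins are shown with the mature arms in capitals, because the members leave the same transcript at different places. The search for a putative Ire1 motif refers to the same letters.
mir-183: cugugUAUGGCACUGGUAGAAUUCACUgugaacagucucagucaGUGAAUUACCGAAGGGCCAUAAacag
mir-96: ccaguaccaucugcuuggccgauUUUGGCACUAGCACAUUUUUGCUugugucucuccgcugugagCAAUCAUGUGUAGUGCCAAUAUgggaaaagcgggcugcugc
mir-182: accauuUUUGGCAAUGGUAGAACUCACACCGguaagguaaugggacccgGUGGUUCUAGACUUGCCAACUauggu

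No hairpin of the cluster was called at any time against 0 h in the limma fit of the 690 hairpin probe sets, where 0 of 690 (0%) were called at each time. At an unadjusted p under 0.05 there were 43 at 2 h, 45 at 5 h and 52 at 10 h. The mir-183 hairpin ranged over the 12 arrays between 6.45 and 6.90 and the mir-182 hairpin between 5.02 and 5.35, all above the limit. The mir-183 hairpin was 6.68 ± 0.23 at 10 h against 6.63 ± 0.07 at 0 h, and the mir-182 hairpin 5.14 ± 0.09 at 10 h against 5.13 ± 0.04 at 0 h (SD, n = 3 arrays each).

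The mir-96 hairpin was below the limit on all 12 arrays, between 1.75 and 2.22, so no change of the precursor could be read there. Its 3 arrays at 2 h were higher than those at 0 h without overlap, as in 11.7% of hairpin probe sets in either direction, at a difference of 0.27 (adjusted p = 0.72). The largest difference from 0 h of the other hairpins was -0.06, for mir-182 at 2 h (adjusted p = 0.94). The hexamer CUGCAG is its own reverse complement, and the authors name it as a putative Ire1 cleavage site of miR-216b. In their assays Ire1 did not cut the miR-216b precursor, but it cut an Xbp1 substrate whose sequence lacks this hexamer. Presence or absence of these letters therefore does not tell whether a hairpin is cut. The hexamer occurred in none of the 3 hairpins of the cluster and in 75 of the 1005 mouse hairpins in RefSeq (7.46%). It occurred 1 time in mir-17 and 0 times in mir-34a and mir-125b-1.

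MiR-96 was set beside the other miRNAs whose precursors have been named as cut by Ire1, miR-17, miR-34a and miR-125b. Of these 4 mature strands, 2 fell at 2 h, 0 at 5 h and 0 at 10 h, each against 0 h, with a median difference of -0.24, -0.07 and -0.09. Of all 717 mature probe sets, 5.86% were called lower at 2 h, 4.04% at 5 h and 7.11% at 10 h. These shares are the background for the counts of this list and of the lists that follow. MiR-17, a member of the growth-promoting miR-17/92 cluster, was 13.12 ± 0.03 at 2 h against 13.38 ± 0.02 at 0 h, a difference of -0.26 (limma adjusted p = 4.3e-05). MiR-34a, a target of p53, was 10.41 ± 0.03 at 2 h against 10.82 ± 0.05 at 0 h, a difference of -0.41 (adjusted p = 0.00010). MiR-125b, an abundant miRNA of differentiated cells, differed from 0 h by 0.01, -0.01 and -0.01 and did not pass, nor did miR-96. Of their 7 hairpin probe sets, 0 were called, and 5 were at or under the limit on all 12 arrays.

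MiR-183, miR-96 and miR-182 also belong to a list of 8 miRNAs known to repress Foxo1, with miR-27a, miR-27b, miR-135a, miR-139-5p and miR-223. Of the 8, none rose and 2 fell at 2 h, 0 were called at 5 h, and 1 fell at 10 h, with medians of -0.08, 0.00 and -0.03. At 10 h, 1 of 8 is close to the 7.11% of all mature probe sets called lower. The 2 were miR-27a, at 12.95 ± 0.03 at 2 h against 13.23 ± 0.03 at 0 h (-0.28, adjusted p = 9.1e-06), and miR-27b, at 12.37 ± 0.05 at 2 h against 12.54 ± 0.03 at 0 h (-0.17, adjusted p = 0.0057). MiR-27b was also the 1 at 10 h (-0.12, adjusted p = 0.043), a call that held under 9 of 25 other settings. The 3 members of the cluster were not among those called. MiR-135a and miR-223 were under the limit on all 12 arrays.

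Since the cluster is found in epithelia and in neural and retinal cells, the miRNAs of those tissues were read on the same arrays. All 10 fibroblast miRNAs of a list (such as miR-199a, miR-214 and miR-145) were above the limit on all 12 arrays. The summed intensity of these 10 was 16.5 to 16.6 in log2 at every time. Of them 2 rose and 1 fell at 2 h, and 1 rose and 3 fell at 5 h and again at 10 h, with medians of -0.06, -0.03 and -0.09; with the shift to 1 median of the mature probe sets, none was called at 2 h or 5 h and 1 rose at 10 h. The shares of all mature probe sets called higher were 7.39% at 2 h, 4.32% at 5 h and 5.58% at 10 h. Of 7 epithelial miRNAs, 5 were called lower at each of 2, 5 and 10 h against 0 h. The shares of all mature probe sets called lower were 5.86%, 4.04% and 7.11%. The medians of the list, -1.11, -1.35 and -1.23, are the differences of miR-203. Of those 5, miR-200a and miR-203 were at or under the limit on all 12 arrays, as were miR-141 and miR-429, which were not called. No size of a fall can therefore be read for miR-200a or miR-203, nor from the medians. MiR-200b was above the limit on 2 of 12 arrays only, and miR-200c and miR-205 on 6 of 12 each. The call of miR-200a at 10 h (-0.81, adjusted p = 0.025) held under 16 of 23 other settings. MiR-205, typical of stratified epithelium, was 9.21 ± 0.08 at 0 h and 5.46 ± 0.36 at 2 h, and it was under the limit on all arrays at 5 h and 10 h. MiR-200c, which keeps the repressors Zeb1 and Zeb2 low in epithelial cells, was 7.74 ± 0.11 at 0 h and 4.30 ± 0.24 at 2 h, and likewise under the limit later.

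The summed intensity of the 7 epithelial miRNAs lay between 9.64 and 9.77 in log2 at 0 h and between 6.12 and 6.51 at 2 h. Such sums are set mostly by the brightest probe sets, here miR-205 and miR-200c at 0 h, and do not measure the abundance of a list. At 5 h and 10 h all 7 were at or under the limit on every array, so the sums there (4.58 to 4.81) are those of background. Over the same arrays, miR-183 and miR-182 differed from 0 h by at most 0.12 at any time. In such bulk RNA, fewer cells of a type and less of a miRNA per cell cannot be told apart, and the part of the epithelial miRNAs in the values of the cluster was not tested. Of 10 neural and retinal miRNAs, 0 were called at 2 h, and 1, miR-9*, fell after 5 h (-0.63, adjusted p = 0.029) and also after 10 h (-0.54, adjusted p = 0.046), which held under 16 and 7 of 25 other settings. With the replicate block its adjusted p at 5 h was 0.051. At both times, 1 of 10 stands against 4.04% and 7.11% of all mature probe sets called lower. The medians of that list were -0.14, -0.04 and -0.20. Of the 10, 4 were above the limit on all 12 arrays (miR-128, miR-138, miR-7a and miR-9*) and miR-9 on 10 of 12. The brain miRNA miR-124 was above the limit on 1 of 12 arrays, miR-211 on 1, and miR-204, miR-219 and miR-7b on none. The summed intensity of this list was 8.72 to 8.93 at 0 h and 8.50 to 8.60 at 10 h.

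**Figure D3:**
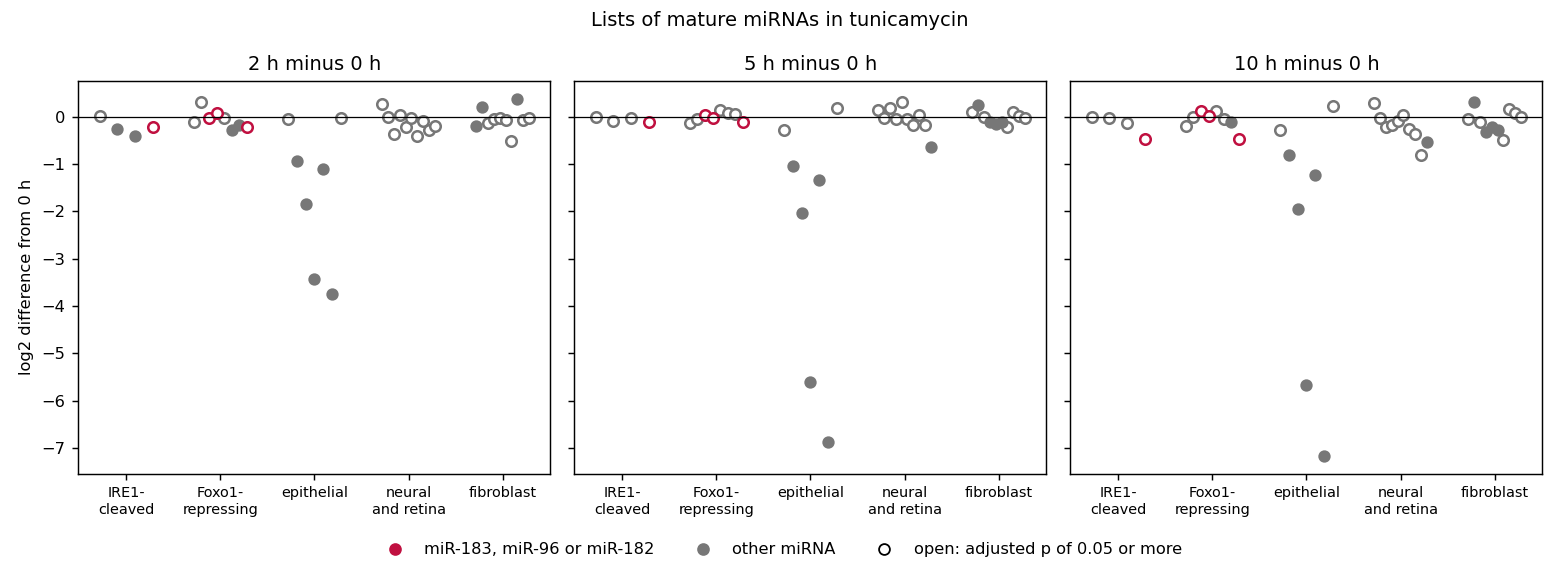
Log2 difference from 0 h of each mature miRNA of 5 lists, at 2, 5 and 10 h. Red points are miR-183, miR-96 and miR-182, grey points the other miRNAs, and filled points had an adjusted p under 0.05; points at or under the background limit at both times are included. The epithelial list reaches below -7 at 10 h (miR-205, under the limit there, so a bound only), and the red points lie between -0.47 and 0.12.

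The miRNAs with the most similar course over the 12 arrays differed from member to member. Among 320 other plain mature probe sets above the limit on at least 3 arrays, the highest Pearson correlations with miR-183 were those of miR-193b (0.87), miR-181b (0.84) and miR-34b-3p (0.82). For miR-182 they were those of miR-130b (0.88), miR-151-5p (0.86) and miR-708 (0.81), and for miR-96 those of miR-669a (0.87), miR-300 (0.68) and miR-1274a (0.64). Between the members themselves the correlation was 0.09 for miR-183 and miR-96, -0.14 for miR-183 and miR-182, and -0.39 for miR-96 and miR-182. After the mean of each time point was taken off, it was 0.24 for miR-183 and miR-96, 0.63 for miR-183 and miR-182, and -0.30 for miR-96 and miR-182. All these values share the same arrays and their normalization, and they are given as descriptions.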

How the data were processed

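The authors purified total RNA, labelled it with biotin, hybridised it to Affymetrix GeneChip miRNA arrays and analysed the results in GeneSpring with analysis of variance and t-tests. They deposited log2 values per probe set, made with RMA per the submitters' processing notes. RMA brings the arrays towards a common distribution of values, so a change shared by most miRNAs can be reduced or hidden. The medians of the mature probe sets still differed between the deposited arrays, from 3.40 to 3.65. Its version and the build behind the array's own annotation were not given in the sources used here. Both deposited tables held the same values (largest difference 0), and no further normalization was applied.

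Probe sets were classed by name as mature (717), hairpin (690) or of an older name (5, left out). Mature and hairpin probe sets were fitted separately with limma 3.58.1 in R 4.3.3, with time as a factor of 4 levels, a trended prior variance and all 12 arrays. All tests were two-sided, at 0.05 after Benjamini-Hochberg adjustment. Exact permutation tests used scipy 1.17.1 in Python 3.11.15. The background limit used a kernel estimate of the most frequent value. Sequences, names and neighbours came from RefSeq tables. The fit was tested on simulated data. Intensities of 3 arrays per time point limit the precision. The members, the lists and the limit were chosen with earlier results of these data known. Named miRNAs are the members, their other strands and hairpins, the members of the lists that passed or define a list, and the miRNAs of most similar course. Other scalings, filters on dim probe sets, variance models, choices of arrays or probe sets, the methods' t-test and a replicate block were tried, and each array was left out in turn. Same-numbered arrays had correlated deviations from the time means in all 3 pairs between 0 h and 5 h (0.31, 0.60 and 0.19). In no other comparison were all 3 over 0.1, though the first arrays at 0 h and 10 h were (0.15). Arrays of other numbers at 0 h and 5 h also correlated (up to 0.43). The second arrays there correlated negatively with those of other numbers (-0.49 to -0.38). The labels do not say what a shared number marks, so the fits have no block and blocked values are given where they bear on a call.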

Additional observations from a re-analysis of the deposited data

Results flagged for a closer look

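The change of miR-182 from 0 h differed between 2 time points by a test of the difference itself, with 0.16 more on the log2 scale at 10 h than at 2 h (limma adjusted p = 0.016). All 3 arrays at 10 h were above all 3 at 2 h, and 29.1% of mature probe sets had no overlap there in either direction. In that comparison 10.9% of mature probe sets were called, and the call of miR-182 held under 20 of 25 other settings. Groups of 3 arrays were too small to look for single arrays that stand apart.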

How the results depend on the processing

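The members' log2 differences were recomputed under 25 alternatives for each of 6 comparisons, and 427 of the 450 values kept their direction and their side of the threshold. Many alternatives alter only the variance, the set of probe sets or arrays outside the comparison. These leave the difference itself as it is, so its direction could not change there. MiR-182 at 10 h against 0 h (0.12, not called) was called in 7 of 25: with quantile normalization (0.12), among the probe sets brighter than the median (0.12), in those above the limit on 3 arrays (0.12), with array weights (0.12), with only the arrays compared (0.12), by the methods' t-test (0.12), and without the third array at 5 h, with 0.10 to 0.12 over all arrays left out in turn and an adjusted p between 0.030 and 0.29 in all. MiR-182 at 10 h against 2 h (0.16) was called in 20 of 25, and not without the trend in the variance (0.16), by the methods' t-test (0.16) or without 3 of the arrays, with 0.13 to 0.18 over arrays left out and an adjusted p between 0.0026 and 0.17. Its F test over time (adjusted p = 0.046) passed in 7 of 23, and not with each array shifted to 1 median (0.057) or to 1 median of the mature probe sets (0.11), with hairpins in the fit (0.091), no trend (0.29), a robust fit (0.064), the replicate block (0.094) or without the second arrays at 0 h and 5 h together (0.056), and it lay between 0.013 and 0.13 over arrays left out.

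MiR-183 at 10 h against 0 h turned to -0.012 with quantile normalization, -0.011 with array weights and -0.022 without the second arrays at 0 h and 5 h together, and ran from -0.022 to 0.021 over arrays left out. At 10 h against 2 h it turned to 0.041 with the shift to 1 median of the mature probe sets. MiR-96 ran from -0.38 to 0.12 at 5 h against 0 h, from -0.010 to 0.35 at 5 h against 2 h and from -0.49 to 0.063 at 10 h against 2 h over arrays left out. MiR-183* at 10 h against 5 h turned to 0.039 with quantile normalization and 0.078 with the shift to 1 median of the mature probe sets, and ran from -0.048 to 0.013. Its F test passed among the probe sets brighter than the median (0.048) and with array weights (0.034). The mir-183 hairpin turned to 0.053 at 2 h with quantile normalization, and over arrays left out ran from -0.079 to 0.043 at 2 h and from -0.062 to 0.16 at 10 h. The mir-182 hairpin turned to -0.010 at 5 h with quantile normalization and to -0.0079 at 10 h without the second arrays at 0 h and 5 h together, and ran from -0.040 to 0.11 and from -0.017 to 0.065. The excess of the change of miR-182 over that of miR-96 at 5 h ran from -0.11 to 0.43, and that of miR-183 over miR-96 from -0.16 to 0.33. The cause of these turns was not tested.

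The call of miR-183* at 2 h held in 15 of 25, with an adjusted p between 0.011 and 0.21. It was lost with the shift to 1 median of the mature probe sets (0.29), hairpins in the fit (0.33), only the arrays compared (0.33), the methods' t-test (0.33) and the replicate block (0.33), and over arrays left out it was 0.25 to 0.40. Over all time points, same-numbered arrays had correlations of their deviations between -0.21 and 0.60, over 0.1 in 4 of 18 pairs, against 6 of 36 pairs of other numbers. All 3 pairs were over 0.1 between 0 h and 5 h, and not between any other time points. With the replicate block, miR-96 differed at 10 h against 0 h by -0.47 (adjusted p = 0.28) and at 5 h by -0.11 (adjusted p = 0.86), and miR-183* at 2 h had an adjusted p of 0.063. Within the numbers, miR-96 was lower than at 0 h in 3 of 3 pairs at 10 h (-0.26, -0.54 and -0.62) and in 3 of 3 at 5 h (-0.13, -0.017 and -0.19). These counts were not set against all mature probe sets, and the labels do not say that shared numbers are pairs. Neither difference passed the limma test without a block (adjusted p = 0.43 and 0.90). The shift to 1 median of the mature probe sets, chosen after the data were seen, gave 7 mature probe sets higher and 30 lower at 2 h against 0 h, against 53 and 42 as deposited; 11 and 11 at 5 h, against 31 and 29; and 38 and 18 at 10 h, against 40 and 51. The methods' t-test gave 15 and 21, 6 and 4, and 21 and 19. Without the trend the counts higher and lower were 19 and 13 at 5 h, and 24 and 30 at 10 h, and 24 rose at 2 h. Over arrays left out, 29 to 60 rose and 28 to 43 fell at 2 h, and 18 to 35 rose and 11 to 32 fell at 5 h.

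The dim probe set of miR-96 limits what can be read from it: its value stood on 11 of 12 arrays above the main limit and on 12 of 12 above the 3 other limits tried, and the mir-96 hairpin was under all of them.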
